A study of Homo sapiens with 10 samples.

Results

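The genes KLRC1, KLRC2, KLRC3, KLRC4, KLRD1 and KLRK1 code for the NKG2 lectin receptors and their partner CD94. They were followed through SW620, a human colon cancer line, and its metastatic derivatives. All rows of the deposited table that list any of the 6 symbols were taken, which gave 49 of the 56949 rows with a listed gene. The whole table has 65535 rows, which with its header is a row limit of older spreadsheets, so it may be incomplete, and shares of all rows and counts of measured genes refer to this table. A single symbol stood on 47 of these rows, and 2 rows listed KLRC2 and KLRC3 together and are given apart. The genes were chosen from measured values, namely their difference between derivatives and parental cells in these same arrays, so that difference is described here without a test.

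RNA was measured on 10 arrays of an Affymetrix human gene chip. The 4 parental arrays hold SW620 cells, a line from a lymph node metastasis of a human colon carcinoma. The 3 liver arrays hold liver metastasis derivatives and the 3 lung arrays hold lung metastasis derivatives, both selected by growth in balb/c nude mice, taken out of the metastases and expanded in culture. Nude mice lack a thymus and so most T cells, but keep natural killer cells. All groups carry the cell line SW620 and the strain balb/c in their labels, the parental cells too, and all were kept in DMEM with fetal bovine serum, glutamine, penicillin and streptomycin. The labels call the arrays of a group biological replicates without saying whether they come from separate metastases, animals or cultures, and p-values therefore cover just the spread among these arrays, which may be technical. The labels name no drug and no genetic change.

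NKG2 receptors are membrane lectins known from natural killer cells and some T cells, where they read stress and class I signals on other cells. KLRC1 (NKG2A) pairs with KLRD1 (CD94), binds HLA-E and inhibits the cell through the phosphatase SHP-1. KLRC2 (NKG2C) and KLRC3 (NKG2E) pair with KLRD1 and activate through the adaptor TYROBP, while the role of KLRC4 (NKG2F) is less clear. KLRK1 (NKG2D) forms a dimer with itself, binds MICA, MICB and the ULBP proteins, and activates through the adaptor HCST. The 6 genes lie beside each other on chromosome 12, in the natural killer gene complex. KLRC1, KLRC2 and KLRC3 are related gene copies. Their probes may be shared, which makes the split between them uncertain.

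The 250 bases before the transcription start are shown for KLRC4, KLRC3 and KLRC1, because rows of these neighbouring genes stood higher in both derivatives. They come from the RefSeq promoter table of GRCh38.p14, which matched 3 of the 6 genes, and all lie on the minus strand, printed 5′ to 3′. The KLRC4 window is chr12:10409758-10410007, the KLRC3 window is chr12:10420596-10420845, and the KLRC1 window, the first of 3 listed starts, is chr12:10454686-10454935. Capitals mark runs of at least 12 bases that the KLRC3 and KLRC4 windows share.
KLRC4: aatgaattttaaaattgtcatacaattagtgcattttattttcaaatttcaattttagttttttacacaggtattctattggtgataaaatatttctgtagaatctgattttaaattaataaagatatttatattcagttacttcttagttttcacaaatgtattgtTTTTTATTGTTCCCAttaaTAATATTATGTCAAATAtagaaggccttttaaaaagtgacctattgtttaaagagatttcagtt
KLRC3: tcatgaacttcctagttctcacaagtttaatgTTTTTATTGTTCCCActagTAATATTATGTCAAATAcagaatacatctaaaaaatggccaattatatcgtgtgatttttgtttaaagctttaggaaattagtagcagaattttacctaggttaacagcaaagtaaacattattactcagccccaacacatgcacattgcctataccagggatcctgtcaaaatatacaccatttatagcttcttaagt
KLRC1: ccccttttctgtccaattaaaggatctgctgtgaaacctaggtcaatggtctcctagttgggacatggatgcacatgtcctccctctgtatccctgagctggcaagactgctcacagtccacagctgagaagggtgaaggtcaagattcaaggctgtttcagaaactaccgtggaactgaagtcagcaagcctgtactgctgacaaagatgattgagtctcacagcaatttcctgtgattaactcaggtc
The shared runs were TTTTTATTGTTCCCA, of 15 bases, and TAATATTATGTCAAATA, of 17 bases. They began at -218 and -199 in KLRC3 and at -83 and -64 in KLRC4, counted from the start. In a global alignment 57.0% of columns were identical between KLRC3 and KLRC4, against 47.6%, 50.3% and 52.1% between KLRC3 and the 3 KLRC1 starts. The letters TATAAA occurred on either strand once (1) in the KLRC4 and once (1) in the KLRC3 window, did not occur in the KLRC1 windows, and stood in 10.7% of the 35116 promoters of the same length. The AP-1 letters TGANTCA (6.57% of promoters) and the RUNX letters TGTGGT (11.0%) occurred in none of the 5 windows searched, which says only that these letters are not there.

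The arrays were not alike in a way the groups do not explain. Parental arrays 1 to 3 correlated with each other at 0.986 to 0.988 over all rows. Parental array 4 correlated with them at 0.965 to 0.968 and with the lung arrays at 0.963 to 0.964. The lung arrays correlated with parental arrays 1 to 3 at 0.94 to 0.957 and with each other at 0.966 to 0.968. The labels name no batch. The lung differences of the high rows are therefore also given set-adjusted, from a fit with a term for parental array 4 and the lung arrays against the other 6, which leaves the lung arrays compared with parental array 4 alone. Of the 49 rows, 43 lay below the median of the array on every array, and no detection call was used here, so how far the dim rows lay above background is unknown.

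In both derivatives a small set of KLRC rows stood far above the parental cells. Over the 49 rows, 7 had every liver and every lung array above every parental array and a difference of at least 1 log2 unit in both, which 0.453% of all rows did. They were 1 row of KLRC1, 1 of KLRC2, 2 of KLRC3, 1 of KLRC4, 1 of KLRK1 and 1 of the rows listed for KLRC2 and KLRC3, and none of KLRD1. Since these values chose the genes, nothing is read from that share.

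**Figure D1:**
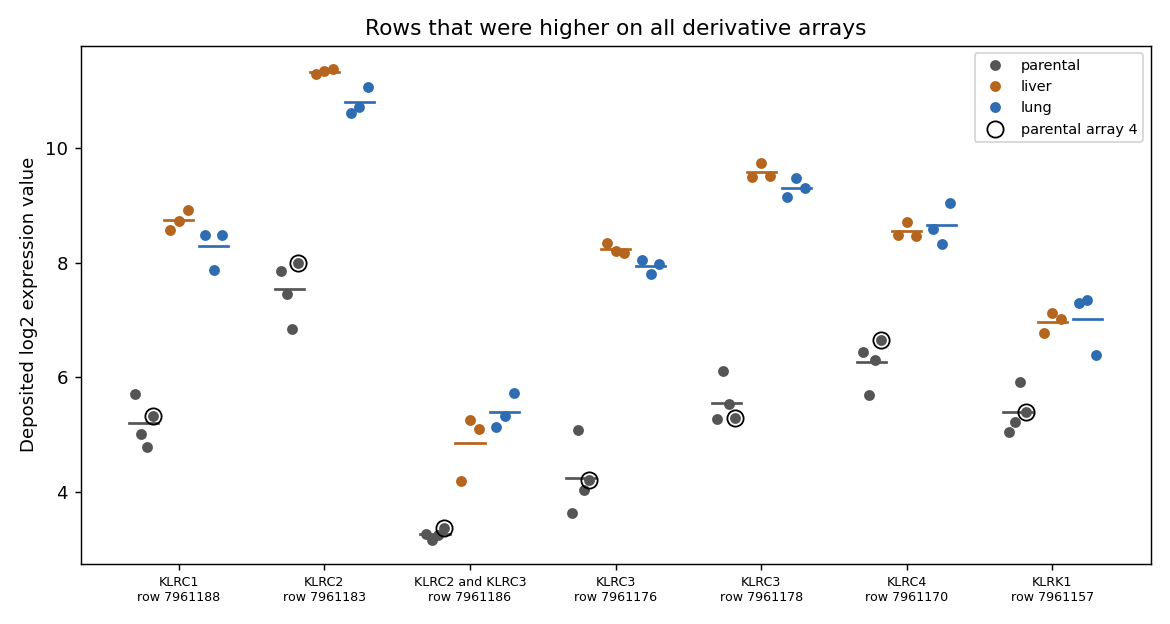
Deposited log2 expression values (y axis) of the 7 rows that were higher on all derivative arrays, with each array as a point and the group mean as a line. The 4 parental points lie below all 3 liver and all 3 lung points in every row, and the circle marks parental array 4.

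The row of the inhibitory receptor KLRC1 (7961188) read 5.71, 5.02, 4.78 and 5.33 on the parental arrays, 8.57, 8.72 and 8.92 on the liver arrays, and 8.49, 7.87 and 8.49 on the lung arrays (log2 levels). The groups did not overlap, and all lung arrays lay below all liver arrays. The group means were 5.21 ± 0.40 (SD, n = 4), 8.74 ± 0.18 (n = 3) and 8.29 ± 0.36 (n = 3). Liver derivatives were higher by 3.53 (SE 0.24), or 11.5-fold, and lung derivatives by 3.08 (SE 0.24), or 8.45-fold, and by 2.95 set-adjusted.

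The activating receptor KLRC2 (row 7961183) read 7.85, 7.45, 6.85 and 8.0 in parental cells, 11.29, 11.34 and 11.37 in liver derivatives and 10.61, 10.72 and 11.06 in lung derivatives. Parental array 4 was the highest of the parental arrays, and no derivative array came near it. The means were 7.53 ± 0.51 (SD, n = 4), 11.33 ± 0.04 (n = 3) and 10.79 ± 0.23 (n = 3). The difference was 3.80 (SE 0.25) in liver, or 13.9-fold, and 3.26 (SE 0.25) in lung, or 9.58-fold. The set-adjusted lung difference was 2.79.

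KLRC3, which also pairs with CD94, had the largest differences of the 49 rows. Its row 7961178 read 5.27, 6.12, 5.54 and 5.29 in parental cells, 9.49, 9.74 and 9.52 in liver derivatives and 9.14, 9.48 and 9.30 in lung derivatives. Its row 7961176 read 3.63, 5.08, 4.04 and 4.21, then 8.35, 8.21 and 8.17, then 8.04, 7.81 and 7.98. In both rows the derivative arrays lay over 2 log2 units above the highest parental array. The first row was higher by 4.02 (SE 0.20) in liver, or 16.2-fold, and by 3.75 (SE 0.20) in lung, or 13.5-fold. The second was higher by 4.0 (SE 0.28) and 3.70 (SE 0.28). The set-adjusted lung differences were 4.02 and 3.73.

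The row listed for both KLRC2 and KLRC3 (7961186) was dim, at 3.27, 3.16, 3.25 and 3.38 in parental cells, 4.19, 5.26 and 5.10 in liver derivatives and 5.13, 5.33 and 5.72 in lung derivatives. Liver array 1 lay below the other derivative arrays, and all derivative arrays lay above the parental ones. It was higher by 1.59 (SE 0.25) in liver and 2.13 (SE 0.25) in lung, and by 2.01 in lung set-adjusted. The other shared row (7961185) read 7.24, 7.65, 7.40 and 6.52, then 8.35, 7.96 and 8.28, then 7.02, 7.50 and 7.80, so its lung arrays overlapped the parental range. Its differences were 0.99 in liver and 0.24 in lung.

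KLRC4 (row 7961170) read 6.44, 5.69, 6.30 and 6.66 in parental cells, 8.49, 8.71 and 8.47 in liver derivatives and 8.58, 8.33 and 9.04 in lung derivatives. Liver and lung arrays shared a range, apart from the parental range. The difference was 2.28 (SE 0.24) in liver, or 4.87-fold, and 2.38 (SE 0.24) in lung, or 5.20-fold, and 1.99 for lung set-adjusted. A pair of further KLRC4 rows (7961163 and 7961168) held identical values on every array, so they count as 1 measurement, with differences of 0.95 and 1.09 and a lung SD of 1.34. Leaving either out gives 48 distinct rows.

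KLRK1 codes for the receptor that works without CD94. Its row 7961157 read 5.05, 5.22, 5.92 and 5.40 in parental cells, 6.78, 7.13 and 7.01 in liver derivatives and 7.29, 7.35 and 6.39 in lung derivatives. The groups did not overlap, but the gap between parental array 3 and lung array 3 was small. The difference was 1.58 (SE 0.27) in liver, or 2.98-fold, and 1.61 (SE 0.27) in lung, or 3.06-fold, and 1.61 for lung set-adjusted. The brightest KLRK1 row (7961159) read 8.69, 8.36, 8.58 and 8.0, then 8.63, 8.84 and 8.88, then 8.26, 7.71 and 8.11. Its liver arrays overlapped the parental arrays from above and its lung arrays from below, with differences of 0.37 and -0.38. The KLRK1 rows thus did not share a direction in the lung derivatives.

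KLRD1, the partner that KLRC1, KLRC2 and KLRC3 need at the cell surface, had no row of this kind among its 12. Its brightest row (7953961) read 7.97, 8.05, 8.32 and 8.37 in parental cells, 8.37, 8.34 and 8.49 in liver derivatives and 8.60, 9.03 and 8.64 in lung derivatives. Liver overlapped parental, and lung lay above both. The differences were 0.22 (SE 0.15) and 0.58 (SE 0.15), and 0.39 for lung when set-adjusted. Over its 12 rows the liver differences ran from -0.32 to 0.39, with a median of 0.12, and the lung differences from -0.35 to 1.66, with a median of 0.34.

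**Figure D2:**
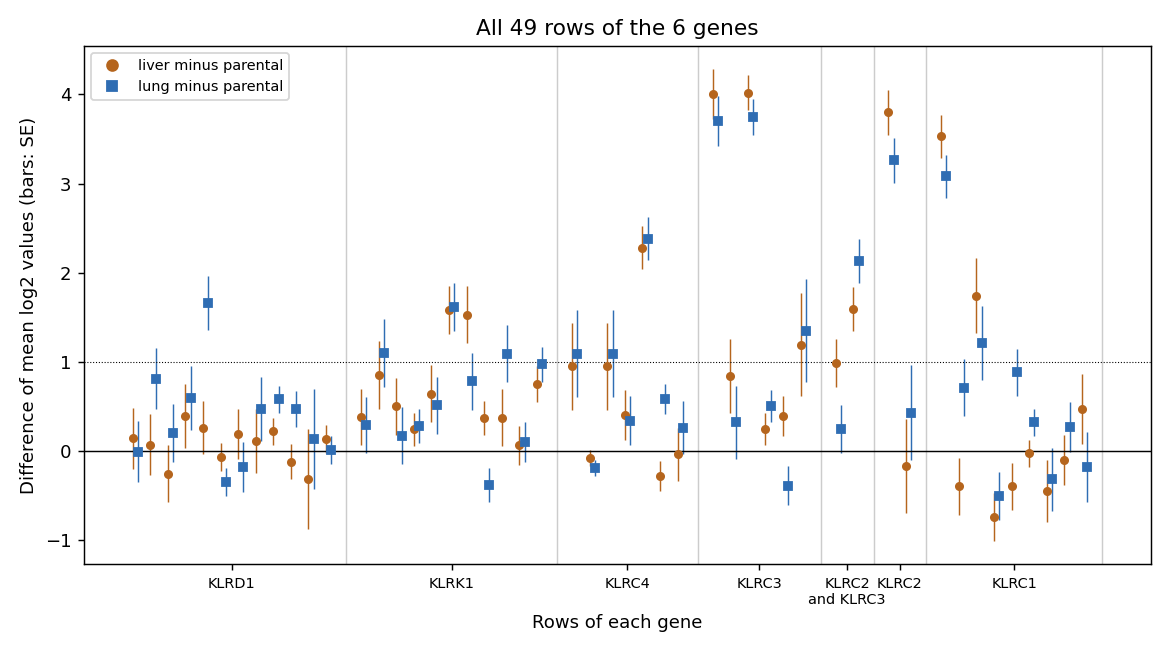
Difference of mean log2 values from parental cells (y axis) for all 49 rows, grouped by gene along the x axis, with liver as circles, lung as squares, SE as bars and a dotted line at 1. High rows of KLRC1, KLRC2, KLRC3 and KLRC4 stand beside rows of the same genes near 0, and no KLRD1 row reaches 1 in the liver derivatives.

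Most rows of the same genes did not follow the high ones. All liver arrays lay above all parental arrays in 15 of the 49 rows (8.59% of all rows did so), made up of 2 of 9 KLRC1, 1 of 2 KLRC2, 3 of 6 KLRC3, 3 of 7 KLRC4, 4 of 11 KLRK1, 0 of 12 KLRD1 rows and both shared rows. The KLRC4 count for liver holds both identical rows. All lung arrays lay above all parental arrays in 13 rows (9.31% of all rows). These are counts in the contrasts that chose the genes. In 26 rows neither derivative stood apart from the parental arrays in either direction. Over the 42 rows outside the 7, the liver differences ran from -0.74 to 1.74, with a median of 0.23, and the lung differences from -0.51 to 1.66, with a median of 0.33. The medians over all 49 were 0.37 and 0.47, beside 0.01 and -0.03 over all rows of the table. The other KLRC2 row had differences of -0.17 and 0.43, and KLRC1 row 7961191 had all liver arrays below all parental arrays, at -0.74.

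Some rows lay close to the limit that set the 7 apart. KLRC1 row 7961190 read 3.25, 3.55, 3.27 and 3.11 in parental cells, 4.85, 4.87 and 5.36 in liver derivatives and 4.53, 3.37 and 5.61 in lung derivatives, with lung array 2 inside the parental range. Lung array 2 also lay at parental levels in KLRC3 row 7961181, at 3.68, where the differences were 1.19 and 1.35, and in the identical KLRC4 rows, at 5.22. KLRK1 row 7961158 differed by 1.53 and 0.78, with parental array 4 above all lung arrays. KLRK1 row 7961162 did not overlap, but its differences, 0.75 and 0.97, were under 1. Just inside, the smallest differences among the 7 were those of KLRK1 row 7961157.

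The comparison of lung with liver derivatives did not choose these genes, and it was tested with limma over all 56949 rows with Benjamini-Hochberg adjustment, two-sided, calling adjusted p-values under 0.05. It called 4 of the 49 rows, where 12.6% of all rows were called. An unadjusted p under 0.05 was found in 9 of the 49 and in 18998 of all 56949 rows. None of the 7 high rows was called in this fit. With only the liver and lung arrays fitted, KLRC2 row 7961183 was called, at a limma adjusted p of 0.0499, where the alternatives ran from 0.0499 to 0.492. The lung minus liver difference was -0.45 for KLRC1 row 7961188 (95% interval -1.02 to 0.12, limma adjusted p = 0.243) and -0.54 for KLRC2 row 7961183 (-1.14 to 0.06, 0.19). It was -0.27 for KLRC3 row 7961178 (-0.76 to 0.22, 0.411) and -0.30 for KLRC3 row 7961176 (-0.98 to 0.38, 0.517). In these 4 rows each lung array read below each liver array, although the test did not call them. KLRC4 row 7961170 differed by 0.09 (-0.48 to 0.66, 0.82), KLRK1 row 7961157 by 0.04 (-0.61 to 0.68, 0.942) and the shared row 7961186 by 0.54 (-0.05 to 1.13, 0.182). All 7 intervals hold 0 and reach as far as -1.14 and 1.13, so the missing calls do not show equal levels.

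The 4 called rows were others. KLRD1 row 7953956 read 3.78, 4.10, 4.03 and 5.08 in parental cells, 4.35, 4.46 and 4.70 in liver derivatives and 6.06, 6.18 and 5.48 in lung derivatives. All lung arrays stood above all other arrays, and parental array 4 was nearest to them. The lung minus liver difference was 1.40 (SE 0.32, interval 0.69 to 2.12, limma adjusted p = 0.0291), and 0.29 (adjusted p = 0.856) when set-adjusted. KLRC1 row 7961192 was higher in lung by 1.28 (SE 0.28, adjusted p = 0.0275), and by 1.12 (adjusted p = 0.602) set-adjusted. KLRC4 row 7961171 was higher by 0.86 (SE 0.18, adjusted p = 0.0255), and by 0.31 (0.747) set-adjusted. The brightest KLRK1 row (7961159) was lower in lung, at -0.75 (SE 0.20, adjusted p = 0.0413), and at -0.22 (0.87) set-adjusted. None of the 4 calls held in the set-adjusted fit. In that fit the KLRD1, KLRC4 and KLRK1 differences also moved nearer 0, outside their intervals of the main fit. The KLRC1 difference stayed inside its interval. That fit ties the lung arrays to parental array 4 alone, so its differences and calls rest on that array. The part of the array set was not tested further.

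**Figure D3:**
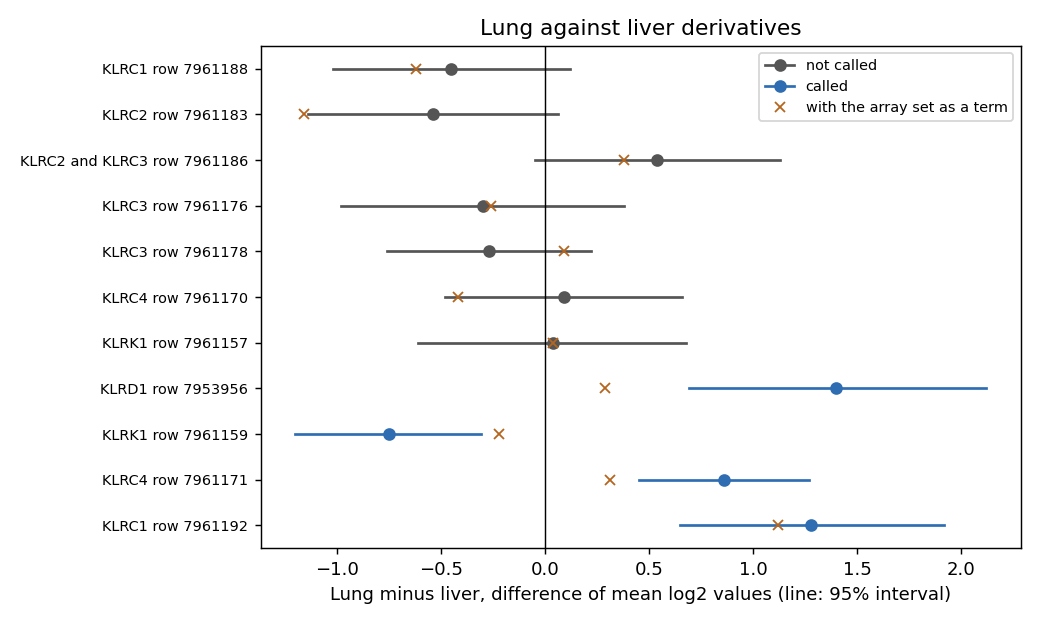
Lung minus liver difference of mean log2 values (x axis, 95% interval as a line) for the 7 high rows and the 4 called rows (y axis), with crosses for the set-adjusted fit. The intervals of the 7 high rows all include 0, and the crosses of the called KLRD1, KLRK1 and KLRC4 rows lie outside their intervals, nearer 0.

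Genes beside the receptors were read from a list of 10 that code for no lectin and a list of 22 lectins of the same complex, of which 21 were measured. No row of either list was called in the liver derivatives (0 of 51 and 0 of 184, where 2.20% of all rows were called by limma), with 7 and 12 rows at an unadjusted p under 0.05 and again 0 and 0 with limma's trended, robust eBayes. In the lung derivatives 8 rows of the first list were called higher and 2 lower, and 12 of the second higher and 2 lower, where 13.1% of all rows were called in either direction. In the set-adjusted fit 1 and 0 rows were called, and without parental array 4 there were 15 and 33. No row of either list met the rule for the 7 high rows.

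GABARAPL1, an autophagy gene next to KLRD1, was higher in lung derivatives by 1.29 on its brightest row (limma adjusted p = 0.0158) and by 0.99 set-adjusted. In liver derivatives the same row differed by 0.75 (adjusted p = 0.234). KLRA1P, the lectin pseudogene after KLRC1, was higher in lung by 1.05 (adjusted p = 0.016), by 0.60 set-adjusted, and differed by -0.46 in liver (adjusted p = 0.42). The bitter taste receptor genes TAS2R10 and TAS2R7 rose in lung by 0.49 (adjusted p = 0.0118) and 0.70 (0.0166), and STYK1, a kinase gene, had 3 of 14 rows called higher, the one with the lowest p at 1.72 (0.0139). MAGOHB, an exon junction gene, differed by 0.11 in liver and -0.02 in lung on its brightest row, neither called. Of its 6 rows, 1 was called lower in lung, at -0.76 (limma adjusted p = 0.0444). Among the lectins, KLRF1 and KLRB1, receptors of natural killer cells, had 2 of 8 and 1 of 7 rows called higher in lung. Their lowest-p rows rose by 1.0 (limma adjusted p = 0.00796) and 1.05 (0.00867). Their brightest rows differed by 1.15 and 0.62, not called, and by -0.29 and -0.1 set-adjusted. KLRG1, a further receptor of these cells, had 0 of 8 rows called in lung.

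**Figure D4:**
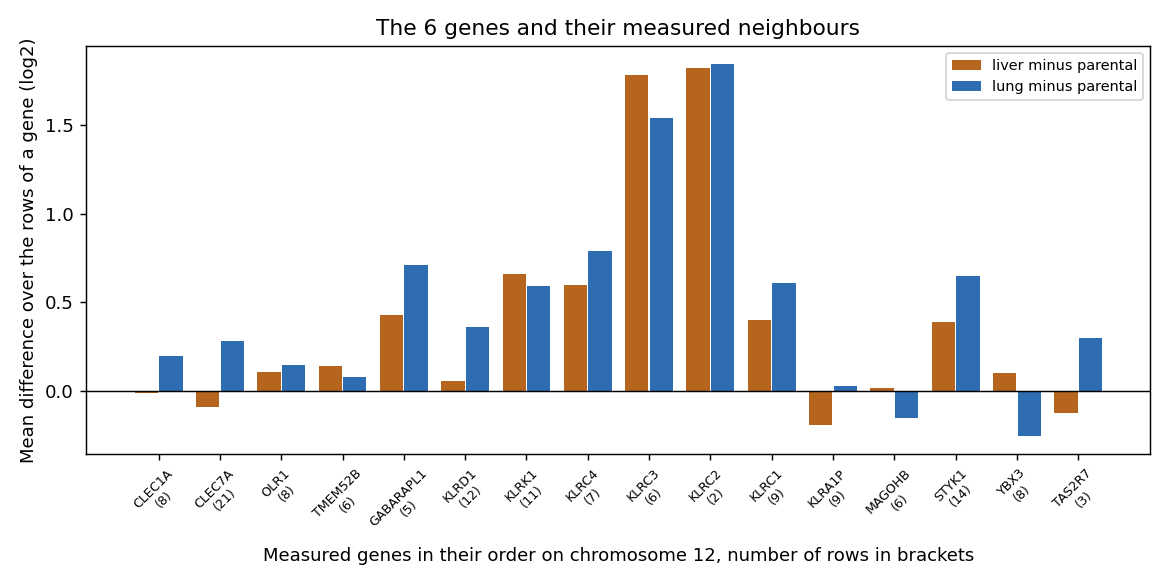
Mean over the rows of a gene of the difference from parental cells (y axis, log2) for 16 measured genes in their order on chromosome 12 (x axis, number of rows in brackets), with liver and lung as bars and no error drawn. KLRC3 and KLRC2 stand highest, at 1.78 and 1.82 in liver and 1.54 and 1.84 in lung. On the far side of KLRC1, KLRA1P and MAGOHB lie between -0.19 and 0.03, but STYK1 stands at 0.39 in liver and 0.65 in lung. GABARAPL1, beside KLRD1, stands at 0.43 and 0.71, and KLRC1 at 0.4 and 0.61. The KLRC1 bars average 9 rows, with medians of -0.1 and 0.32 and largest differences of 3.53 and 3.08. The KLRC2 bars average 2 rows, so bar heights depend on how many rows near 0 a gene has.

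Of 19 genes listed as signalling partners, 12 were measured, and whether each of them acts under these receptors was not tested. The adaptor genes HCST and TYROBP are not analysed here, nor are HLA-E, MICA, MICB and the other ligands. None of the 213 rows was called in liver derivatives by limma, where 2.20% of all rows were called. There were 26 at an unadjusted p under 0.05 and 1 called with trended, robust eBayes. In lung derivatives 10 rows were called higher and 26 lower, where 13.1% of all rows were called in either direction. Of the lower rows, 21 belonged to PIK3C2B, a lipid kinase gene. In the set-adjusted fit 0 rows were called, and without parental array 4 there were 60. The rows with the lowest adjusted p were those of PIK3C2B at -1.14 (limma adjusted p = 0.00366), VAV3, an exchange factor, at 1.20 (0.00965), PIK3R3, a kinase subunit, at -0.62 (0.0117) and SHC1, an adaptor, at -1.08 (0.0118). PTPN6, which codes for SHP-1, the phosphatase under KLRC1, had 0 of 20 rows called by limma in either derivative. At an unadjusted p under 0.05 it had 0 in liver and 5 in lung, and with trended, robust eBayes 0 and 3 were called.

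Markers of natural killer and T cells were read beside these values, 27 of 34 listed genes being measured on 260 rows. Of all rows, limma called 2.20% in liver and 13.1% in lung derivatives, in either direction. In liver derivatives 17 rows were called higher, 7 of CD5, 8 of CD4 and 2 of CD6. A further 12 were called lower there, all of them of NCAM1. In lung derivatives 34 were called higher and 20 lower, and the set-adjusted fit called 11 in all. CD5 and CD6 are lymphocyte scavenger receptors and CD4 is a T cell coreceptor. NCAM1, listed among the same markers, had 16 of its 24 rows called lower in lung derivatives too. The 7 high rows' rule was met by 8 of 11 CD5 rows (1.58 to 3.13 higher in liver, 1.36 to 2.72 in lung), 3 of 13 CD4 rows (1.69 to 1.93 and 1.15 to 1.64) and 2 of 17 CD6 rows (1.07 to 1.35 and 1.02 to 1.24). PTPRC, which codes for CD45 and marks all white blood cells, had 0 of 37 rows called in liver and 1 in lung, CD3D, CD3E and CD3G had 0 in liver and CD3D had 1 in lung, and PRF1, the perforin gene, had 0 of 4 in both. At an unadjusted p under 0.05 limma had 1 PTPRC row, 0 CD3 rows and 0 PRF1 rows in liver, where trended, robust eBayes called none of them. In lung it had 6 PTPRC, 4 CD3D, 1 CD3E, 1 CD3G and 0 PRF1 rows, where trended, robust eBayes called 1 PTPRC row and none of the others. The mean of the brightest marker rows ran from 8.11 to 8.50 on parental, 8.12 to 8.17 on liver and 8.44 to 8.50 on lung arrays. Bulk RNA cannot tell fewer cells of a type from less RNA per cell, and the part of other cells in the KLRC values was not tested.

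Markers of the colon line itself were present. The keratin genes KRT8 and KRT18 had mean log2 levels of 13.30 and 13.29 in parental, 13.31 and 13.29 in liver and 13.09 and 13.24 in lung cells. Of 124 rows of 8 measured colon markers, 30 were called lower in liver derivatives, and 50 lower and 3 higher in lung derivatives (6 in all set-adjusted). Over all rows of the table, 2.20% were called in liver and 13.1% in lung derivatives. The lowest adjusted p-values in lung were those of CD44, an adhesion receptor, at -1.99 (limma adjusted p = 0.000543) and LGR5, a stem cell receptor, at -0.95 (0.00319). The mean of the brightest rows of the 8 colon markers ran from 11.34 to 11.43 on parental, 10.84 to 10.89 on liver and 10.79 to 11.04 on lung arrays.

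Likeness to KLRC3 was measured by Pearson's correlation of its brightest row with the brightest single-symbol row of each of 4707 genes over the 10 arrays. The points share arrays and fall into parental and derivative clusters, and r carries that split, so it is given only to rank. The 8 most alike were FAM171A1 (r = 0.992), KRT5 (0.99), KIAA1217 (0.974), ADGRL2 (0.974), SMCO2 (0.972), RSU1 (0.97), RAB25 (0.968) and IDI1 (0.967). KRT5, a basal keratin gene, was higher by 4.05 in liver and 4.07 in lung derivatives, and RAB25, a gene of epithelial vesicle transport, by 3.86 and 4.69. RSU1 was alike in pattern but not in size, at 0.42 and 0.34. Ranked against the mean of the rows of KLRC1 to KLRC3 instead, 5 of the 8 stayed in the list, and ranked by the mean of all rows of each gene, 2 of the 8.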

How the data were processed

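The deposited values are log2 expression values, made by the authors with RMA (background correction, quantile normalization and probe summary) and oligo, both named without a version per the submitters' processing notes. The summary level and the genome build of the array annotation are not given in the sources used here. The number of arrays limits the precision, and RMA hides a change in total RNA. The platform annotation names the genes, and 1069 rows equal another row.

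Every row with a listed gene (56949) was fitted with limma 3.58.1 (R 4.3.3) over all 10 arrays with 1 coefficient per group, 7 residual degrees of freedom and no covariate. P-values were two-sided and Benjamini-Hochberg adjusted over all rows, with 0.05 as the threshold. The fit was tested on simulated data. The members, gene lists, array set and tests were chosen with earlier results of these data known.

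Named rows were the brightest of each gene and those at least 1 log2 unit higher in both derivatives without overlap. Most named list genes had the smallest adjusted p or neighboured the receptors, but KLRG1, KRT8 and KRT18 did not. Among the lectins, CLEC4E and others were left unnamed, though 1 of 9 CLEC4E rows was called higher in lung (limma adjusted p = 0.0136). Rows called between lung and liver, rows near the limit, KLRA1P, MAGOHB, PTPN6, PTPRC, the CD3 genes and PRF1 were named after their values were seen. Alternatives covered the replicate block, array set, scaling, dim rows, prior, groups fitted and each array left out.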

Additional observations from a re-analysis of the deposited data

Results flagged for a closer look

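The derivatives' changes from parental cells differed between lung and liver, by the direct limma test, in 4 of the 49 rows. Of all rows, 12.6% were called by the same test. KLRD1 row 7953956 was 1.40 higher in lung, with an adjusted p from 0.00325 to 0.856 over 16 alternatives and a call in 10 of them. KLRC1 row 7961192 was 1.28 higher, with an adjusted p from 0.018 to 0.602 and a call in 10 of 16. KLRC4 row 7961171 was 0.86 higher, with an adjusted p from 0.00404 to 0.747 and a call in 9 of 16. KLRK1 row 7961159 differed by -0.75, with an adjusted p from 0.0131 to 0.87 and a call in 7 of 16. None of these 16 alternatives reversed any of the 4 directions. The part of the array set in these differences was not tested beyond the fit with that term.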

How the results depend on the processing

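The 7 high rows stayed the same 7 when the arrays were scaled by quantiles or medians and when any array was left out, which gave 7 to 9 such rows (alternatives chosen after seeing the data). Over the alternatives of scaling, terms and arrays left out their differences ran from 3.93 to 4.21 in liver and 3.66 to 4.02 in lung for KLRC3 row 7961178, and from 2.79 to 3.41 in lung for KLRC2. The count of rows called between lung and liver, 4, became 0 with the array set as a term, 7 with only the compared groups fitted and 0 when rows under the median were left out, which kept 1 of the 49. With only the compared groups fitted, 9426 of all 56949 rows were called. Leaving out single arrays gave 0 to 8 of the 49 rows. There were 8 without parental array 4, where 14167 of all rows were called. There were 0 without any of the liver arrays or lung array 1, and 1 without lung array 2. The rows at least 1 unit higher were 10 in liver and 14 in lung, where 1.1% and 2.56% of all rows were so. Without 1 of the 2 identical KLRC4 rows they were 10 and 13 of 48. These are counts in the contrasts that chose the genes. They were 1 and 1 without the dim rows, and 10 to 13 and 12 to 16 without single arrays. The replicate block, a fit with the replicate number as a term, gave 7 calls, but the numbers do not pair the arrays, since same-numbered arrays' deviations correlated at -0.117 to 0.0404 and in 4 of 18 checks an array was most alike to its own number.

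Lung minus liver turned from 0.09 to -0.42 for KLRC4 row 7961170 and from -0.27 to 0.09 for KLRC3 row 7961178 with the array set, and ran without single arrays from -0.13 to 0.35 for KLRK1 row 7961157 and from -0.10 to 0.25 for KLRC4 row 7961170. Lung minus parental for KLRK1 turned from -0.38 to 0.59 by the mean of its rows. The causes were not tested. Over the whole table limma called 1252, 7483 and 7194 rows (liver, lung, lung against liver). These became 1464, 635 and 36 with the array set, 786, 12420 and 10045 with the replicate block, and 527 to 1464, 2519 to 16222 and 0 to 14167 without single arrays. The 0 arose without liver array 2 or 3, where 14430 and 14800 rows had an unadjusted p under 0.05. Rows called higher and lower in lung, 2933 and 4550 as deposited, were 3394 and 3524 after quantile scaling, and against liver 2859 and 4335 became 3467 and 3260.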
